A study of Mus musculus with 8 samples.

Results

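The 8 genes described here mark the secretory cells of the conducting airway: Scgb1a1, Scgb3a1, Scgb3a2, Cyp2f2, Cbr2, Aldh1a1, Cyp4b1 and Gabrp. They were taken as every probe that the array annotation assigns to these symbols, which gave 9 probes of 7 genes, out of 25697 probes and 16593 named genes in all. No probe carried the symbol Scgb3a2 in the annotation used here, so that gene is named only. Illumina MouseRef-8 arrays were hybridised with whole-lung RNA of C57BL/6 mice at embryonic day 18.5, and 4 groups had 2 arrays each. The groups were Snx5+/+ non-air, Snx5-/- non-air, Snx5+/+ air and Snx5-/- air lungs. The Snx5-/- mice carried a gene-trap insertion of β-geo, a fused reporter and resistance gene, in an intron of Snx5 on both alleles, from 1 trapped ES cell line. The air groups had gone through an air-breathing test, in which pups delivered by caesarean section were exposed to room air. No source used here says whether an array held 1 animal or a pool, so the p-values measure only the spread between these samples.

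Airway secretory cells, long called Clara cells and now club cells, are dome-shaped epithelial cells that lie among the ciliated cells of the bronchioles. They secrete secretoglobins into the airway lining fluid, metabolise inhaled chemicals through cytochrome P450 enzymes, and act as progenitors that renew the bronchiolar epithelium. They begin to mature shortly before birth, the age sampled here. In RNA of whole lung, fewer cells of a type and less RNA per cell cannot be told apart.

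Between 12209 and 12685 probes per array were detected at a detection p-value under 0.01, and the median log2 intensity was 8.05. Snx5 probe ILMN_2706101 was at or near background, detected on 1 array, with log2 intensities of 7.84 to 8.42 in Snx5+/+ and 7.10 to 7.29 in Snx5-/- lungs. The genotype groups did not overlap. In air lungs Snx5 was at least 1.10-fold lower in Snx5-/- lungs (limma adjusted p = 0.0103), and in non-air lungs no array detected it, so no fold is given there. The probe entered the test in air lungs only through the Snx5+/+ group, whose mean log2 intensity exceeded 8. It could enter only as lower. The other Snx5 probe, ILMN_2602462, was at 7.36 to 7.55 and was not detected on any array. Xist, which is transcribed from the inactive X chromosome of females, was at 11.82 to 12.58 on 6 arrays and at 7.83 and 7.77 on the 2 Snx5-/- air arrays, while the Y-linked Eif2s3y was at 7.13 to 7.40 and at 11.81 and 11.73. In the air lungs, genotype and sex therefore cannot be told apart. Air and sex cannot be told apart in the Snx5-/- lungs, and the interaction of genotype and air holds the same difference in sex. The air labels of the deposited intensity table and of the log2 table oppose each other on all 8 arrays. The groups here are those of the log2 table, and under the opposite labels each air result would stand for non-air lungs and the reverse. The genotype average over both air states does not depend on this. It includes the Snx5-/- air arrays, so every average given below holds part of the difference in sex. None of the members lies on chromosome 2, which carries Snx5.

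The promoters of Scgb3a1, the member with the largest genotype difference, and of Cyp2f2, a member that was not called, are given as the 250 bases before the RefSeq start (GRCm38.p6). Scgb3a1 lies on chr11:49663345-49663594 (plus strand) and Cyp2f2 on chr7:27119705-27119954 (plus strand). Capitals mark CAAGTG, the core letters bound by the lung and airway factor Nkx2-1, or its reverse complement.
Scgb3a1: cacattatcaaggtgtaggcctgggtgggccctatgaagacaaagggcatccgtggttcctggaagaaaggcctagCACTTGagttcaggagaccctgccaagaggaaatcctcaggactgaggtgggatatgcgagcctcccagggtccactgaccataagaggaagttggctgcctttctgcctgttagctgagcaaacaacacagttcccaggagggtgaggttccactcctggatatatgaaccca
Cyp2f2: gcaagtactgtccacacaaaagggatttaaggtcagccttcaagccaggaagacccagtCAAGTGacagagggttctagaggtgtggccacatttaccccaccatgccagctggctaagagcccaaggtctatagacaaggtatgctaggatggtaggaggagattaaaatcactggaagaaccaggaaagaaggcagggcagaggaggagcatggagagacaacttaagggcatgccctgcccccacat
CAAGTG was searched on both strands and occurred in 1 place in each of these windows, and in 11.6% of 32851 promoters. The forkhead motifs TGTTTAC (3.17% of promoters) and TATTTAC (2.73%), and the CCAAT enhancer binding letters TTGCGCAA (0.164%) and TTNCNNAA (36.8%), had no match in either window. The pair was chosen after the expression values were seen, and both the called gene and the gene not called held the same core letters. The other members searched are not printed. Cbr2, Cyp4b1 and Gabrp had 0 matches to CAAGTG, and Aldh1a1 had 0 at its start site 1 and 1 at its start site 2. Promoters of Scgb1a1 and Scgb3a2 are not given here.

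To ask whether loss of Snx5 altered the airway secretory genes, Snx5-/- lungs were compared with Snx5+/+ lungs in each air state. In non-air lungs the secretoglobin Scgb3a1 was higher in Snx5-/- lungs by about 2.07-fold, and the other 6 genes with a probe were not called. In air lungs none of the members was called. Cyp4b1, a cytochrome P450 enzyme, was lower in all 4 Snx5-/- arrays, by about 1.26-fold, which did not reach the fold cutoff. A member counted as called where the limma p, adjusted by Benjamini-Hochberg over all tested probes, was under 0.05 and the change exceeded 1.28-fold, the cutoff of the methods. Probes entered the test where the mean log2 intensity of a compared group exceeded 8.

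**Figure D1:**
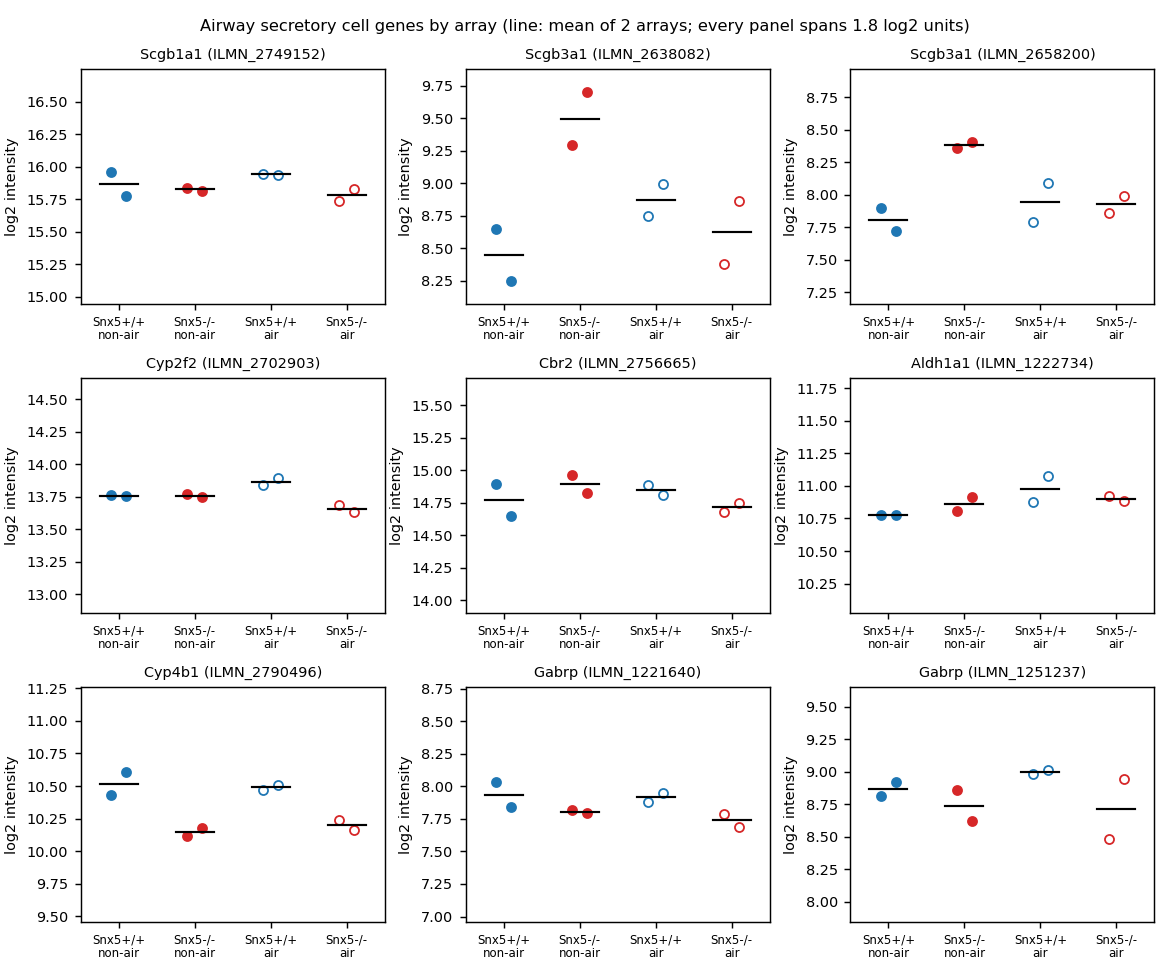
Log2 intensity (y axis) of the 9 probes on the 8 arrays, by genotype and air state, with a black line at the mean of the 2 arrays of a group. Scgb3a1 ILMN_2638082 lies at 9.29 and 9.70 on the Snx5-/- non-air arrays and at or below 8.99 on all others, whereas Scgb1a1 stays between 15.73 and 15.96.

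Scgb1a1, which encodes the club cell secretory protein CC10, was not called in any comparison. Its log2 intensities were 15.96 and 15.78 in Snx5+/+ non-air lungs, 15.84 and 15.81 in Snx5-/- non-air lungs, 15.95 and 15.94 in Snx5+/+ air lungs, and 15.73 and 15.83 in Snx5-/- air lungs. The genotypes overlapped in non-air lungs, and in air lungs both Snx5-/- arrays were below both Snx5+/+ arrays. The log2 fold change between genotypes was -0.05 (SE 0.10, limma adjusted p = 0.881) in non-air lungs, with a 95% interval from -0.27 to 0.18, and -0.16 (SE 0.10, limma adjusted p = 0.512) in air lungs. These values lie close to 16.09, the highest log2 intensity on any array, and whether the probe was saturated was not tested.

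Scgb3a1 encodes a small secreted protein of the same family, made by airway secretory cells, and has 2 probes. For probe ILMN_2638082 the log2 intensities were 8.65 and 8.25 in Snx5+/+ non-air lungs, 9.29 and 9.70 in Snx5-/- non-air lungs, 8.75 and 8.99 in Snx5+/+ air lungs, and 8.38 and 8.86 in Snx5-/- air lungs. Both Snx5-/- non-air arrays lay above all 6 others, and the 2 arrays of every group differed by 0.18 to 0.34 in SD. The difference in non-air lungs was 1.05 on the log2 scale (SE 0.19, 95% interval 0.63 to 1.47, limma adjusted p = 0.0371). In air lungs the groups overlapped and the difference was -0.25 (SE 0.19, limma adjusted p = 0.594). Of all tested probes, 0.595% were called in non-air lungs and 2.34% in air lungs, against 1 of 8 and 0 of 7 member probes. In order of group means, Snx5-/- non-air lungs were followed by Snx5+/+ air, Snx5-/- air and Snx5+/+ non-air lungs. Among these last 3 groups, no comparison that was fitted between neighbours was called.

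Probe ILMN_2658200 of Scgb3a1 was detected only on the 2 Snx5-/- non-air arrays. There it read 8.36 and 8.41, against 7.89 and 7.72 in Snx5+/+ non-air, 7.79 and 8.09 in Snx5+/+ air and 7.86 and 7.99 in Snx5-/- air lungs. It thus placed the same 2 arrays above the rest. This probe passed the intensity filter only through the Snx5-/- non-air group, where it was high, so its sign in non-air lungs was fixed by the filter. Both probes read the same gene and are not independent. The difference in non-air lungs was at least 1.35-fold, the mean of the bright group over the lowest detected signal or the dim probe's own value, whichever was higher (limma adjusted p = 0.0721, not called). The mean of both probes gave 0.81 on the log2 scale (limma adjusted p = 0.0408, called).

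The call for Scgb3a1 rested on few arrays. A group left with 1 array was assumed to vary like the others. The call was lost without Snx5+/+ non-air replicate 2 (0.85, limma adjusted p = 0.226), without Snx5-/- non-air replicate 1 (1.25, limma adjusted p = 0.127) or 2 (0.85, limma adjusted p = 0.463), and without Snx5+/+ air replicate 1 or 2 (1.05, limma adjusted p = 0.0561 for each), and also after neqc normalization (1.59, limma adjusted p = 0.165) and from the arrays of the comparison alone (limma adjusted p = 0.0567). Under the methods' t-test on the same values it was lost too, both after Benjamini-Hochberg adjustment and unadjusted.

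**Figure D2:**
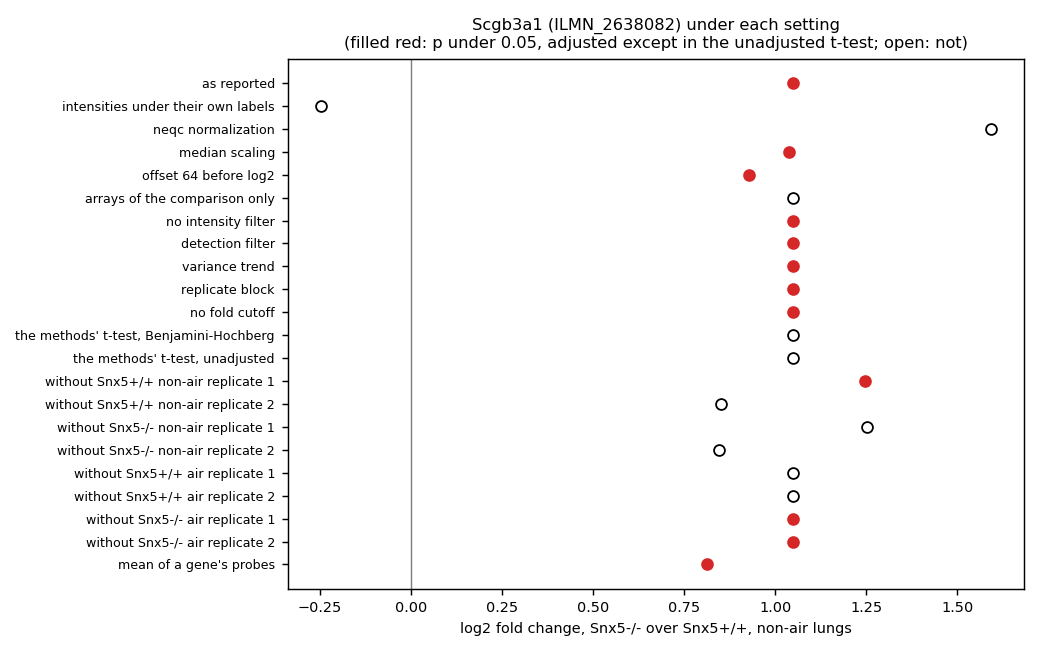
Log2 fold change of Scgb3a1 probe ILMN_2638082 between genotypes in non-air lungs (x axis) for each setting and each left-out array (y axis); filled red points have a p under 0.05. Values lie between 0.81 and 1.59 except with the labels of the intensity table, where the value is -0.25.

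Among the xenobiotic enzymes, Cyp2f2, the P450 that makes mouse club cells sensitive to naphthalene, differed least in non-air lungs. Its log2 intensities there were 13.76 and 13.76 in Snx5+/+ and 13.77 and 13.75 in Snx5-/- lungs. In air lungs it read 13.84 and 13.89 in Snx5+/+ and 13.69 and 13.63 in Snx5-/- lungs. The genotypes overlapped without air, and with air they did not. The log2 fold change was 0.00 in size in non-air lungs (limma adjusted p = 0.9995, 95% interval from -0.21 to 0.21) and -0.21 in air lungs (SE 0.09, limma adjusted p = 0.339).

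Cyp4b1, a P450 that oxidises fatty acids and foreign compounds, had log2 intensities of 10.43 and 10.60 in Snx5+/+ non-air lungs and 10.11 and 10.17 in Snx5-/- non-air lungs. With air it read 10.47 and 10.51 in Snx5+/+ and 10.24 and 10.16 in Snx5-/- lungs. All 4 Snx5-/- arrays were below all 4 Snx5+/+ arrays. The log2 fold change was -0.37 (SE 0.10, limma adjusted p = 0.187) in non-air lungs and -0.29 (SE 0.10, limma adjusted p = 0.207) in air lungs. Averaged over both air states it was -0.33 (SE 0.07, 95% interval from -0.49 to -0.17, limma adjusted p = 0.0320), past the p threshold and short of the fold cutoff. In that average 0 of 8 member probes were called, where 2.34% of all tested probes were. By the adjusted p alone it was 1 of 8 member probes against 2.91% of all probes. In the 4 against 4 arrays 1 of 8 member probes did not overlap, against 7.53% of all probes. Without Snx5+/+ non-air replicate 1 the average was -0.38 (limma adjusted p = 0.0194, called) and the non-air difference -0.46 (limma adjusted p = 0.0410, called).

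Cbr2, a carbonyl reductase of club cell mitochondria, had log2 intensities of 14.89 and 14.65 in Snx5+/+ and 14.97 and 14.83 in Snx5-/- non-air lungs. In air lungs it read 14.89 and 14.81 in Snx5+/+ and 14.68 and 14.75 in Snx5-/- lungs. The genotypes overlapped without air but not with air. The log2 fold changes were 0.13 (SE 0.11, limma adjusted p = 0.664) and -0.13 (SE 0.11, limma adjusted p = 0.630).

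Aldh1a1, an aldehyde dehydrogenase that makes retinoic acid, read 10.78 and 10.78 in Snx5+/+ and 10.81 and 10.91 in Snx5-/- non-air lungs, and 10.87 and 11.08 in Snx5+/+ and 10.92 and 10.88 in Snx5-/- air lungs. The Snx5-/- arrays were higher without overlap in non-air lungs, and the genotypes overlapped in air lungs. The log2 fold changes were 0.08 (SE 0.11, limma adjusted p = 0.765) without air and -0.07 (SE 0.11, limma adjusted p = 0.798) with air. Aldh1a7 is a close paralog, whose RNA could bind the same probe; its own probe was not called in either state (-0.05 and -0.09, limma adjusted p = 0.907 and 0.833).

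Gabrp, the pi subunit of the GABA-A receptor, a chloride channel found in epithelia, has 2 probes. For ILMN_1251237 the log2 intensities were 8.81 and 8.92 in Snx5+/+ and 8.86 and 8.62 in Snx5-/- non-air lungs, and 8.98 and 9.01 in Snx5+/+ and 8.49 and 8.94 in Snx5-/- air lungs. The Snx5-/- arrays were lower in air lungs without overlap, but their own spread was the widest of the 4 groups. The log2 fold changes were -0.13 (SE 0.14, limma adjusted p = 0.740) and -0.28 (SE 0.14, limma adjusted p = 0.400). Probe ILMN_1221640, at 7.69 to 8.03, was not well above background on any array and was not tested. Of 17 other GABA receptor subunit and GABA synthesis genes on the array, 0 were detected.

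Over the 8 member probes tested in non-air lungs the median log2 fold change was 0.04, with 4 negative and 4 positive values, against a median of 0.00 over all tested probes. In 4 of the 8 the genotypes did not overlap, as in 43.2% of all probes. Scgb3a1 ILMN_2658200 is counted among the positive and the non-overlapping probes, and it entered only through the group where it was high. In air lungs all 7 tested members were negative, with a median of -0.21 against 0.01 over all probes, of which 48.3% were negative. In 5 of the 7 the genotypes did not overlap, as in 47.8% of all probes. In this comparison the arrays differ in sex as well as genotype.

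**Figure D3:**
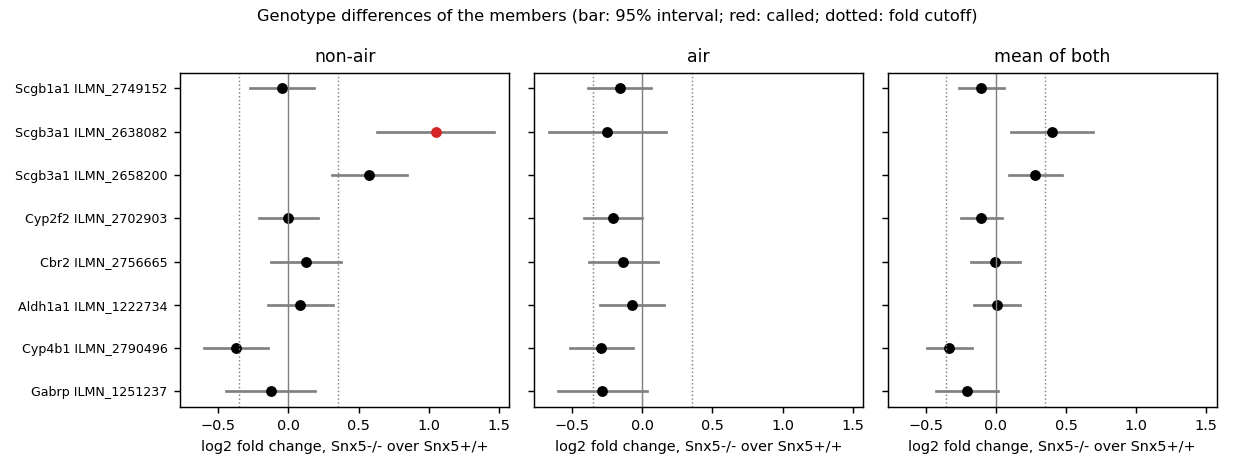
Log2 fold change of Snx5-/- over Snx5+/+ lungs (x axis) for the 8 tested member probes (y axis) in non-air lungs, in air lungs and averaged, with 95% intervals and dotted lines at the 1.28-fold cutoff. Scgb3a1 ILMN_2638082 in non-air lungs, at 1.05, is the point called, and all 7 air values are below 0.

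The air-breathing test was then compared within each genotype. In Snx5+/+ lungs 0 of 7 tested members were called after air, where 0.718% of all probes were, and the log2 fold changes ran from -0.03 (Cyp4b1) to 0.42 (Scgb3a1). In Snx5-/- lungs 0 of 8 tested member probes were called, where 0.662% of all probes were. There Scgb3a1 had the most negative value, -0.87 (SE 0.19, 95% interval from -1.29 to -0.46, limma adjusted p = 0.0797), with both air arrays below both non-air arrays. The Snx5-/- air arrays are those with Y-linked signal, so this value is one of air and sex together. Its second probe gave at least 1.31-fold lower (limma adjusted p = 0.176), and that probe entered only through the non-air group, where it was high. The Scgb3a1 value in Snx5-/- lungs was called without Snx5+/+ non-air replicate 1 or 2 (limma adjusted p = 0.0385 for each). The same 2 Snx5-/- non-air arrays enter this comparison and the genotype comparison without air. The interaction of genotype and air for Scgb3a1 was -1.30 (SE 0.27, limma adjusted p = 0.0776), and without Snx5+/+ non-air replicate 1 it was -1.49 (limma adjusted p = 0.0157, called), and it holds the same difference in sex. In the interaction 0 of 8 member probes were called, where 0.47% of all probes were. For Scgb1a1, Cyp2f2, Cbr2, Aldh1a1, Cyp4b1 and Gabrp the interactions were between -0.26 and 0.08, with limma adjusted p from 0.542 to 0.849.

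Next, the genes whose values over the 8 arrays were most like those of the members with the widest range of group means were sought among 9633 genes. For Scgb3a1 they were Apoa2 (Pearson r = 0.98, Spearman rho = 0.98), an apolipoprotein made mainly by liver, Hba-x (r = 0.98, rho = 0.98), an alpha-like globin of embryonic red cells, Synj2bp (r = 0.97, rho = 0.98), Gtf2h3 (r = 0.96, rho = 0.95) and 1700037H04Rik (r = 0.96, rho = 0.90). These 8 points fall in 4 groups of 2 arrays, and the genes were picked as the best matches, so the values are a description. Apoa2 read 7.66 to 8.25 and was detected on 1 array. Another Synj2bp probe detected on all 8 arrays, ILMN_2752867, was highest on a Snx5-/- air array. It read 9.89 there, against 9.81 and 9.79 in Snx5-/- non-air lungs.

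Because Apoa2 and Hba-x led, lists of liver plasma protein and embryonic globin genes were added after these values had been seen. Hba-x read 8.57 and 8.25 in Snx5+/+ and 9.06 and 9.27 in Snx5-/- non-air lungs, and 8.66 and 8.78 in Snx5+/+ and 8.50 and 8.83 in Snx5-/- air lungs. As for Scgb3a1, its 2 Snx5-/- non-air arrays stood above the other 6 (non-air genotype log2 fold change 0.76, SE 0.14, limma adjusted p = 0.0441). Hba-x was picked for its likeness to Scgb3a1 on these same arrays, so this pattern and its p follow from that choice. Its call was lost without Snx5+/+ non-air replicate 2 (0.60), Snx5-/- non-air replicate 1 (0.87) or 2 (0.66) and either Snx5+/+ air array (0.76), at limma adjusted p from 0.0781 to 0.5003. Hbb-y, an embryonic beta-like globin, rose by 1.07 on the log2 scale in the same comparison (SE 0.13, limma adjusted p = 0.00543), a call lost without Snx5-/- non-air replicate 1 (1.02, limma adjusted p = 0.101) or 2 (1.12, limma adjusted p = 0.0767). Of the 3 globins listed Hbb-bh1 was not detected, and the summed intensity of the others was 995 to 1190 in Snx5+/+ and 2140 to 2160 in Snx5-/- non-air lungs, against 1070 to 1500 in air lungs. Of the 15 liver genes, 14 were on the array and 7 were tested in non-air lungs, of which 3 were called higher and 0 lower, where 0.595% of all probes were called in either direction. The 3 were Ahsg, Fga and Apoa1, which passed the intensity filter only through the Snx5-/- group, where they were high. They could enter only as higher, so this count is a description. Ahsg, a plasma glycoprotein, was at least 1.45-fold higher (limma adjusted p = 0.00591) and Fga, the fibrinogen alpha chain, at least 1.35-fold higher (limma adjusted p = 0.00333) in Snx5-/- non-air lungs. The Ahsg call was lost without Snx5-/- non-air replicate 2 (limma adjusted p = 0.0957) and the Fga call without replicate 1 of that group (limma adjusted p = 0.0774). The third, Apoa1, was not well above background on any of the 8 arrays. Of these liver genes 8 were not detected on any array, Alb, Afp and Ttr among them. The summed intensity of the 6 others was 20700 to 30200 in Snx5+/+ and 20200 to 20800 in Snx5-/- non-air lungs. That sum is carried by brighter genes of the list, since Ahsg and Fga read at most 8.65 and 8.43 on the log2 scale. It could not show their rise. The part of blood or liver RNA in the Scgb3a1 result was not tested.

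**Figure D4:**
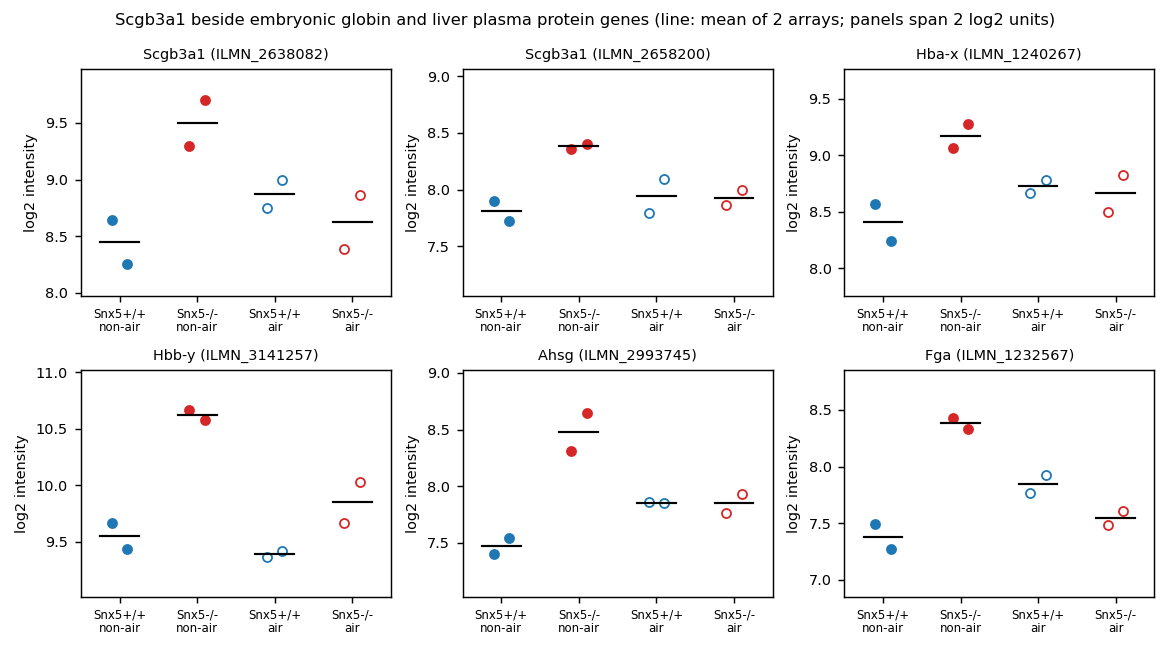
Log2 intensity (y axis) of both Scgb3a1 probes, of Hba-x and Hbb-y (embryonic globins) and of Ahsg and Fga (liver plasma proteins) by array, with a line at the mean of 2 arrays. In every panel the 2 Snx5-/- non-air arrays stand above the other 6, for Hba-x at 9.06 and 9.27 against at most 8.83. Hba-x was picked for its likeness to Scgb3a1. Ahsg, Fga and Scgb3a1 ILMN_2658200 passed the intensity filter only through the Snx5-/- non-air group.

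For Cyp4b1 the most similar genes were Tlcd3a (r = 0.98, rho = 0.93), Kif1a (r = 0.98, rho = 0.95), Qsox1 (r = 0.98, rho = 0.90), Ager (r = 0.97, rho = 0.93) and Eftud2 (r = 0.97, rho = 0.93). Kif1a was detected on 2 of the 8 arrays. Ager encodes RAGE, a receptor used as a marker of alveolar type I cells. Its probe ILMN_1224092 read 15.09 to 15.25 in Snx5+/+ and 14.68 to 14.74 in Snx5-/- lungs over both air states, without overlap. It fell by 0.46 on the log2 scale averaged over air states (SE 0.07, limma adjusted p = 0.00433). The dimmer Ager probe ILMN_1239451, also detected on all 8 arrays, gave -0.53 in that average (limma adjusted p = 0.00186, called). It gave -0.56 in air lungs (limma adjusted p = 0.0142, called) and -0.50 in non-air lungs (limma adjusted p = 0.0579, not called). Ager was picked here for its likeness to Cyp4b1 on these same arrays, so these differences and calls are a description. Of 16 tested type I cell markers, 15 were negative in the average over air states with a median of -0.22 and 4 were called lower, against a median of 0.01 over all probes and 2.34% called. The others called were Aqp5 (-0.52, limma adjusted p = 0.00252), Pdpn (-0.45, limma adjusted p = 0.00599) and Spock2 (-0.44, limma adjusted p = 0.00676, lost without Snx5-/- non-air replicate 1 at 0.0519). The summed intensity of the 16 detected type I markers was 248000 to 273000 in Snx5+/+ and 219000 to 220000 in Snx5-/- non-air lungs. The part of type I cells in the Cyp4b1 values was not tested.

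The wider set of secretory cell genes was described from lists drawn from general knowledge. Of 42 other secretory cell markers 39 were on the array and 32 were tested. In non-air lungs 0 of the 32 were called higher and 1 lower, in air lungs 0 and 2, and in the average 0 and 3. Of all probes 0.595%, 2.34% and 2.34% were called in these comparisons. The medians of the 32 were -0.09, -0.10 and -0.09 on the log2 scale, against 0.00, 0.01 and 0.01 over all probes. The genes called were Pon1, Retnla and Hp. Pon1, an enzyme that hydrolyses lactones and organophosphates, read 11.71 and 11.69 in Snx5+/+ and 11.05 and 11.09 in Snx5-/- non-air lungs. It fell by 0.63 there (SE 0.10, limma adjusted p = 0.0156), a call lost without Snx5+/+ non-air replicate 2 (-0.65, limma adjusted p = 0.0627) and without Snx5-/- non-air replicate 1 (-0.61, limma adjusted p = 0.190) or 2 (-0.65, limma adjusted p = 0.184).

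Retnla, a secreted protein of airway epithelium and macrophages, read 15.04 and 14.94 in Snx5+/+ and 14.22 and 14.45 in Snx5-/- air lungs. It fell by 0.66 in air lungs (SE 0.11, limma adjusted p = 0.00953) and by 0.50 in the average (SE 0.08, limma adjusted p = 0.00457). The air call was lost without Snx5+/+ air replicate 1 (-0.61, limma adjusted p = 0.115) or 2 (-0.71, limma adjusted p = 0.0676) and without Snx5-/- air replicate 1 (-0.54, limma adjusted p = 0.0866). Hp, the haemoglobin-binding haptoglobin, fell by 0.57 in air lungs (SE 0.10, limma adjusted p = 0.0137), and each left-out air array ended the call (limma adjusted p from 0.0812 to 0.159). Its average of -0.37 (limma adjusted p = 0.0182) was lost without each array except Snx5+/+ non-air replicate 1 (limma adjusted p from 0.0435 to 0.112, with the fold under the cutoff at the lowest). The dimmer Hp probes ILMN_2668509 and ILMN_2668510 were not called in air lungs (-0.45 and -0.44, limma adjusted p = 0.138 and 0.134). In the average ILMN_2668510 was called (-0.40, limma adjusted p = 0.0493) and ILMN_2668509 was not (-0.36, limma adjusted p = 0.0892). Cldn10, a club cell claudin, was not called on its brightest probe (0.07 and -0.05, limma adjusted p = 0.778 and 0.850).

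Relatives of the members were called in no genotype comparison. This held for 12 tested secretoglobin and cytochrome relatives (medians -0.01 and 0.05 in non-air and air lungs) and for 21 carbonyl and aldehyde enzyme relatives (-0.05 and -0.06). It also held for 10 mucous and serous genes (-0.02 and -0.06), among which the lung secretory gene Bpifa1 was not detected. Of 34 tested airway regulators, 1 was called in the genotype average, where 2.34% of all probes were. This was Sox21, a transcription factor gene of the airway epithelium, which rose by 0.47 on the log2 scale (SE 0.08, limma adjusted p = 0.00892), from 8.27 to 8.69 in Snx5+/+ to 8.72 to 9.16 in Snx5-/- lungs. That call was lost without Snx5-/- non-air replicate 1 (0.44, limma adjusted p = 0.0609) or Snx5+/+ air replicate 2 (0.42, limma adjusted p = 0.0572). The other Sox21 probes, ILMN_2721489 and ILMN_3163306, were not detected on any array. These counts are by 1 probe a gene, the one with the highest mean. In 2 cases of these lists a dimmer probe was called in the average where the brightest was not. These were ILMN_2928489 of Muc1, a membrane mucin, at -0.36 (limma adjusted p = 0.0248) and ILMN_2669510 of Elf5, an Ets factor of the airway, at 0.65 (limma adjusted p = 0.00153). The Muc1 call was lost without each array except Snx5+/+ non-air replicate 1 (limma adjusted p from 0.0569 to 0.121). The same Elf5 probe was at least 1.91-fold higher in Snx5-/- air lungs (limma adjusted p = 0.00152), and the mean of its probes was not called in either comparison (limma adjusted p = 0.250 and 0.0970 for the average and for air lungs). In air lungs that probe passed the intensity filter only through the Snx5-/- group, where it was high. It could enter there only as higher.

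After air, 4 genes of these lists were called on their brightest probe. In Snx5+/+ lungs 1 of 10 tested mucous and serous genes was called higher. Of 34 tested airway regulators 1 was called higher and 1 lower there, where 0.718% of all probes were called. In Snx5-/- lungs 1 of 34 airway regulators was called higher and 0 lower, where 0.662% of all probes were called. In either genotype 0 of 32 other secretory cell markers were called. In Snx5+/+ lungs Ltf, the iron-binding lactoferrin of serous cells and neutrophils, rose by 0.83 (limma adjusted p = 0.00398), Klf4, an epithelial differentiation factor, rose by 0.74 (limma adjusted p = 0.0209), and Irx3, an Iroquois transcription factor, fell by 0.58 (limma adjusted p = 0.0368). The dimmer Klf4 probes ILMN_1221264 and ILMN_1241903 were not called there (0.40 and 0.35, limma adjusted p = 0.141 and 0.175). In Snx5-/- lungs Hes1, a target of Notch signalling, rose by 0.69 (limma adjusted p = 0.0126), in a comparison where air and sex cannot be told apart. The dimmer Elf5 probe ILMN_2669510 was at least 2.14-fold lower after air in Snx5+/+ lungs (limma adjusted p = 0.000782), while the brightest gave -0.19 (limma adjusted p = 0.644) and the mean of the probes was not called (limma adjusted p = 0.129). The dimmer probe passed the intensity filter there only through the non-air group, where it was high, and could enter only as lower. Ltf was also among 7 of 10 tested neutrophil granule genes called higher after air in Snx5+/+ lungs, with Camp, Lcn2, S100a8, S100a9, Stfa1 and Stfa2. Their list had a median of 0.81 against -0.01 over all probes, of which 0.718% were called. Camp passed the intensity filter there only through the air group, where it was high. It could enter only as higher, so the count is a description. The Ltf call was lost without Snx5+/+ air replicate 2 (0.73, limma adjusted p = 0.101). The Klf4 call was lost without Snx5+/+ non-air replicate 2 (0.70) and Snx5+/+ air replicate 1 (0.87) or 2 (0.62), at limma adjusted p from 0.0548 to 0.336. The Irx3 call was lost without Snx5+/+ non-air replicate 2 (-0.53), either Snx5-/- non-air array (-0.58) and Snx5+/+ air replicate 1 (-0.62) or 2 (-0.53), at limma adjusted p from 0.0893 to 0.442. The Hes1 call was lost without either Snx5-/- non-air array (0.63 and 0.74) and without Snx5-/- air replicate 1 (0.61), at limma adjusted p from 0.0925 to 0.199.

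Markers of the cells beside the secretory cells were read the same way. Of 20 tested ciliated cell markers 0 were called in either air state, with medians of 0.17 and 0.04, and their summed intensity was 63200 to 65900 in Snx5+/+ and 69000 to 69500 in Snx5-/- non-air lungs. Foxj1, the regulator of motile cilia, was detected on all 8 arrays and was not called. Of all probes, 0.595% were called in non-air and 2.34% in air lungs, with medians of 0.00 and 0.01.

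Of 10 basal cell markers 9 were on the array, and Trp63, Krt5 and Krt17 were not detected on any array. In non-air lungs 0 of 5 tested were called (median 0.21), and in air lungs 0 of 6 were called higher and 2 lower (median -0.09). Of the 2, Krt14 passed the intensity filter in air lungs only through the Snx5+/+ group, where it was high. It could enter there only as lower. Their summed intensity was 15000 to 16000 in Snx5+/+ and 15000 to 15200 in Snx5-/- non-air lungs, and 14800 to 15600 and 12400 to 12700 in air lungs. Krt15, a basal cell keratin, read 11.14 and 11.07 in Snx5+/+ and 10.65 and 10.56 in Snx5-/- air lungs, lower without overlap (-0.50, SE 0.10, limma adjusted p = 0.0311). The Krt15 call was lost without each array except the 2 Snx5+/+ non-air ones (limma adjusted p from 0.0515 to 0.228). Krt14, another basal keratin, was detected on 1 array and was at least 1.07-fold lower in Snx5-/- air lungs (limma adjusted p = 0.00368), a call lost without Snx5+/+ air replicate 1 or Snx5-/- air replicate 2 (limma adjusted p = 0.0668 and 0.0509). Krt14 also stands in the list of squamous epithelium, where Lor, a protein of the cornified envelope, fell by 0.69 in air lungs (limma adjusted p = 0.00886, lost without Snx5+/+ air replicate 2 or either Snx5-/- air array at 0.0580 to 0.134) and by 0.54 in the average (limma adjusted p = 0.00352). Of 20 cartilage genes 18 were on the array, and 10 of them were not detected, Col2a1 and Matn1 among them. In non-air lungs 0 of 8 tested cartilage genes were called, with all 8 negative (median -0.12), and in air lungs 0 of 7 were called, with 6 negative (median -0.34). Their summed intensity was 14300 to 16200 in Snx5+/+ and 13000 to 13100 in Snx5-/- non-air lungs.

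Among 11 tested neutrophil granule genes, 1 was called higher in non-air lungs, 3 in air lungs and 6 in the average, where 0.595%, 2.34% and 2.34% of all probes were called. Their medians were 0.44, 0.29 and 0.35, against 0.00, 0.01 and 0.01 over all probes. In non-air lungs Camp, not called there, passed the intensity filter only through the Snx5-/- group, where it was high. S100a9, a neutrophil calcium-binding protein, rose by 0.85 (limma adjusted p = 0.0478) in non-air and 0.99 (limma adjusted p = 0.00873) in air lungs. The non-air call was lost without each array except Snx5+/+ non-air replicate 1 (0.62 to 0.90, limma adjusted p from 0.0560 to 0.371), and the air call without Snx5+/+ air replicate 1 (0.87, limma adjusted p = 0.106) or Snx5-/- air replicate 2 (0.81, limma adjusted p = 0.0996). The others called in air lungs were Retnlg, a resistin-like protein, at 1.04 (limma adjusted p = 0.00276) and Stfa2, a stefin, at 0.63 (limma adjusted p = 0.0450, called without Snx5+/+ non-air replicate 1 or 2 or Snx5-/- air replicate 1 but lost without the others, at 0.0906 to 0.282). In the average S100a9, Retnlg, Stfa2, S100a8, Stfa1 and Camp were called, at 0.92, 0.82, 0.59, 0.79, 0.83 and 0.35 on the log2 scale (limma adjusted p from 0.00118 to 0.0205). The Stfa2 average was lost without Snx5-/- non-air replicate 2 (limma adjusted p = 0.0537), and that of Camp without each array except Snx5+/+ non-air replicate 1. The summed neutrophil intensity was 15100 to 21000 in Snx5+/+ and 28400 in Snx5-/- non-air lungs.

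Of 16 tested type I cell markers, 1 was called lower in non-air lungs (median -0.24) and 2 in air lungs (median -0.19). Aqp5, a water channel, fell by 0.69 without air (limma adjusted p = 0.0141), a call lost without Snx5+/+ non-air replicate 2 or either Snx5-/- non-air array (limma adjusted p from 0.0627 to 0.190). In air lungs Ager gave -0.47 (limma adjusted p = 0.0334) and Pdpn, or podoplanin, -0.57 (limma adjusted p = 0.0148), and each left-out air array ended both calls, as did either Snx5-/- non-air array for Ager. Of 22 tested type II cell markers, 21 were negative in non-air lungs (median -0.30, 2 called lower) and 9 in air lungs (median 0.03, 0 called). The genes called were Hc, complement C5, at -0.79 (limma adjusted p = 0.00592, lost without either Snx5-/- non-air array at 0.0888 and 0.116) and Il33, a cytokine, at -0.67 (limma adjusted p = 0.0398). The Il33 call was lost without Snx5+/+ non-air replicate 2 and without each Snx5-/- non-air and Snx5+/+ air array (limma adjusted p from 0.0729 to 0.350). Hc was also called in the average (-0.50, limma adjusted p = 0.00249). Their part in the members' values was not tested.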

How the data were processed

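The authors deposited log2 intensities of 8 arrays, which the methods describe as quantile normalized, and a second table of intensities before normalization, with deposited detection p-values. Each intensity column matches the log2 column of the other air state (rank correlation at least 0.99975), while the detection p-values follow the log2 labels. The log2 table under its own labels was used, and 0 per-sample columns were left out. Non-air mutant samples, whose description names wild type, were grouped by title and genotype.

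Group means were fitted with limma 3.58.1 in R 4.3.3 (lmFit, eBayes, 4 groups, no block), with Benjamini-Hochberg adjustment over all tested probes of a comparison. The fits were tested on simulated data. The combined test of the methods was not run, since 2 arrays a group allow too few splits (exact p no lower than 0.333). Alternatives were 13 processing settings and each of 8 left-out arrays.

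The text names every member probe, genes of the lists that were called in a genotype comparison or, for the secretory, mucous and regulator lists, after air, the 5 genes most like each of 2 members, and genes used as checks. The members and lists were chosen with earlier results of these data known. Genes were named through the platform annotation, and 23962 probes matched the RefSeq gene table by Entrez identifier. Promoter sequences are from RefSeq (GRCm38.p6). The number of arrays limits the precision.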

Additional observations from a re-analysis of the deposited data

Results flagged for a closer look

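In 2 members the air effect ran in opposite directions in the genotypes, with arrays that did not overlap in either. The share of all probes that do so was not computed. Between genotypes, also with 2 against 2 arrays, 43.2% of all probes did not overlap in non-air and 47.8% in air lungs. The pattern is therefore a description. Scgb3a1 probe ILMN_2638082 was higher after air in both Snx5+/+ arrays, by 0.42 on the log2 scale, and lower in both Snx5-/- arrays, at -0.87; the interaction did not pass the threshold (limma adjusted p = 0.0776). Cyp2f2 probe ILMN_2702903 gave 0.11 in Snx5+/+ and -0.10 in Snx5-/- lungs (interaction limma adjusted p = 0.566). The Snx5-/- air arrays also differ from the other 6 in sex, so air and sex cannot be told apart in the Snx5-/- values and in the interactions.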

How the results depend on the processing

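With the air labels of the intensity table, the member called in non-air lungs became 0 and in air lungs 1. Scgb3a1 ILMN_2638082 then gave -0.25 in non-air and 1.05 in air lungs, -0.42 after air in Snx5+/+ and 0.87 in Snx5-/- lungs, and an interaction of 1.30; ILMN_2658200 gave 0.46 and 0.59 in the last 2. Ltf gave -0.82, Klf4 -0.74 and Irx3 0.58 after air in Snx5+/+ lungs, and Hes1 -0.69 in Snx5-/- lungs; the dimmer Elf5 probe gave 1.12 after air in Snx5+/+ lungs. Between genotypes Hba-x gave -0.059 and Il33 0.19 in non-air lungs, and Krt15 0.21 in air lungs. The labels are exchanged in this setting, so these signs turn by construction. These counts are of member probes. The count of 1 called in non-air lungs became 0 with neqc normalization, with the arrays of the comparison only and with the adjusted t-test of the methods. It stayed at 1 with that t-test unadjusted, but for the other Scgb3a1 probe (ILMN_2658200). Without the intensity filter it became 2, which were the 2 probes of Scgb3a1. The count of 0 became 1 in the average with median scaling or no fold cutoff (0 to 1 over left-out arrays). It became 1 for air in Snx5-/- lungs with median scaling, the arrays of the comparison only, no intensity filter or the methods' t-test unadjusted (0 to 1), and 1 for the interaction with median scaling or no intensity filter (0 to 1). The cause was not tested. Over 887 member values under alternatives, 854 stayed on their side of the threshold without reversing a call, 9 lost a call, 17 gained one and 7 reversed; the sign turned in 59.

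Arrays with the same replicate number did not deviate together (correlations from -0.23 to 0.28), so the samples share only a number. With the replicate block the count in non-air lungs stayed at 1 (Scgb3a1 1.05, limma adjusted p = 0.0368) and the other counts at 0; Irx3, Hba-x, Il33 and S100a9 lost their calls (limma adjusted p = 0.0583, 0.0622, 0.0622 and 0.0732, the last 3 in non-air lungs), as did Krt15, Ager and Stfa2 in air lungs (0.0502, 0.0535 and 0.0610), and no other gene run under this setting did.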
